A study of Mus musculus with 10 samples.

Results

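The protein arginine methyltransferases (PRMTs) were examined in the prefrontal cortex of Arid1b heterozygous mice. The family comprised 9 genes (Prmt1, Prmt2, Prmt3, Carm1, Prmt5, Prmt6, Prmt7, Prmt8 and Prmt9), found by symbol among the 18216 genes of the table, and all 9 were among the 16781 genes that were tested. The family was taken up because Prmt2 ranked 4 when all tested genes were ordered by their p-value for genotype, next after the 3 genes past the threshold. The difference of Prmt2 between genotypes is therefore a description and carries no test, whereas the other 8 genes came with the family.

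The samples were 5 male mice with 1 mutant copy of Arid1b (HT) and 5 male wild types (WT), all C57BL/6N at postnatal day 10, without drug treatment, with 1 library per mouse. The germline allele was made with Cas9 nickase and guides on both sides of exon 5 of Arid1b, and the study's methods give it as a deletion with TT inserted, whereas its description of the strategy gives an insertion of TT in exon 5. The ARID1B protein is a DNA-binding subunit of BAF, a complex that moves nucleosomes. The sires were HT and the dams WT, and nothing in the labels assigns the mice to litters.

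PRMTs transfer methyl groups from S-adenosylmethionine to the nitrogens of arginine side chains in histones, splicing factors and many other RNA-binding proteins. Type I enzymes (PRMT1, PRMT2, PRMT3, CARM1, PRMT6 and PRMT8) make asymmetric dimethylarginine, type II enzymes (PRMT5 and PRMT9) make symmetric dimethylarginine, and PRMT7 makes monomethylarginine only. PRMT1 and PRMT5 do most of the asymmetric and symmetric methylation in cells, and PRMT8 is a membrane-anchored relative of PRMT1 found mainly in neurons.

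Values are normalised counts, that is, estimated reads per gene divided by a size factor for each sample. Log2 fold changes (HT minus WT) are on the log2(value + 1) scale, and adjusted p-values come from limma over all 16781 genes. Of these genes, 3 had an adjusted p under 0.05 (0.0179%), namely Tmem181b-ps and Dynlt1b, higher in HT (0.0119%), and Arid1b, lower in HT (0.00596%). All 3 lie on chromosome 17, Arid1b at 4994332-5347656, Dynlt1b at 6430112-6436296 and Tmem181b-ps at 6438524-6467022. The part of the edited locus in the values of Dynlt1b and Tmem181b-ps was not tested. Arid1b was lower in HT, at 1894 ± 86.6 (SD, n = 5) against 2842 ± 142 (SD, n = 5), with a log2 fold change of -0.59 ± 0.05 (SE) and an adjusted p of 9.96e-05 by limma, so the libraries matched their labels at the targeted gene. All 8 markers of cortical glutamatergic neurons were present, from Rorb (mean 1194) to Slc17a7 (mean 46416), and their summed normalised counts were 55028 to 73074 in HT and 61224 to 75375 in WT. The sum of 9 striatal markers ranged from 5100 to 15735 in HT and from 3976 to 12470 in WT, and thus varied widely within both groups. Of these 9 markers, 8 had log2 fold changes above 0 (median 0.53), and 0 had an unadjusted p under 0.05. The sum of 10 astrocyte markers was 169003 to 213363 in HT and 153280 to 180417 in WT, with the highest value in HT2, and 7 of the 10 had an unadjusted p under 0.05, each with the higher mean in HT. Over all tested genes, 9.23% had an unadjusted p under 0.05, 4.71% with the higher and 4.52% with the lower mean in HT. No marker in these lists was at 0 in any mouse. The sum of 9 microglial markers was 10826 to 15099 in HT and 10547 to 12190 in WT, and all 9 had log2 fold changes above 0 (median 0.16), 2 of them with an unadjusted p under 0.05. All 8 markers of the oligodendrocyte lineage had log2 fold changes above 0 (median 0.17, 1 with an unadjusted p under 0.05), and their sum ran from 59554 to 82162 in HT and from 34896 to 84544 in WT. All 6 olfactory bulb markers had log2 fold changes above 0 (median 0.28), 0 of them with an unadjusted p under 0.05. Their sum ran from 638 to 3321 in HT and from 587 to 3287 in WT. HT2 and WT4 stood apart in it, with 382 and 272 normalised counts of Eomes. HT2 also had the highest share of mitochondrial transcripts, at 8.43%, against 5.15% to 6.76% in the other mice. In bulk tissue, fewer cells of a type and less RNA per cell cannot be told apart.

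Prmt2, a weakly active type I enzyme with an SH3 domain that is known as a coactivator of nuclear receptors, was the member with the largest difference. Its gene lies at chr10:76207222-76237865 (GRCm38, minus strand, protein-coding, ENSMUSG00000020230). The 300 bases around its RefSeq start site are shown because Prmt2 is the member on which the family was chosen. They run from 250 bases before to 50 bases after the start, at chr10:76237816-76238115 (GRCm38.p6, minus strand, RefSeq), written 5′ to 3′ with matches to searched motifs in capitals.

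Prmt2 promoter: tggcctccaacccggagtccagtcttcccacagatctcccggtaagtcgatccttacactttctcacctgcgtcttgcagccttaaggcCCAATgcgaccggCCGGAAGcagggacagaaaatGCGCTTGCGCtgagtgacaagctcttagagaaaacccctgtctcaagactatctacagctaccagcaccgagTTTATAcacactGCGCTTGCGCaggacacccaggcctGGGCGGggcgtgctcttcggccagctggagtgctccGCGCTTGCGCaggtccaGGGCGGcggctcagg

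The motifs were searched on both strands, and were the GC box GGGCGG, the ETS core CCGGAAG, the E-box CACGTG, the cyclic AMP response element TGACGTCA, the CCAAT box, the TATA box TATAAA and an NRF1-type motif (GCGC, then any base, then TGCGC). They were chosen after the sequence had been seen. No matches overlapped each other in the Prmt2 promoter. The NRF1-type motif matched 3 times, each time as GCGCTTGCGC, starting at positions 124, 208 and 269 counted from 1 at the 5′ end of the printed sequence. The narrower form with A as the free base had no match in the Prmt2 window and was present in 0.977% of all promoters, and the form with any base was searched because of the letters seen here. At least 1 match to the form with any base was present in 4.78% of 27025 promoters, and 3 or more were present in 0.104%. The cutoff of 3 equals the number of matches in this window, so nothing is read from that share. GGGCGG matched 2 times in the window and is present in 35.9% of all promoters, and single matches were found for CCGGAAG (9.12% of promoters), CCAAT (37.9%) and TATAAA on the opposite strand (14.2%). The Prmt2 window had a GC content of 60.3%, against a median of 52.7% for all promoters. Promoter entries were found for 8 of the 9 genes, and the NRF1-type motif had no match in the other 7. A match is only a run of letters, and no factor binding was measured here.

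Prmt2 had normalised counts of 1566, 1481, 1589, 1607 and 1566 in HT1 to HT5. In WT1 to WT5 the normalised counts were 1759, 1871, 1940.1, 1833 and 1806. All HT mice were lower than all WT mice, and the highest HT mouse (HT4) stood 152 normalised counts below the lowest WT mouse (WT1). The means were 1562 ± 48.4 in HT mice and 1842 ± 68.4 in WT mice (SD, n = 5 each), so that HT mice averaged 84.8% of the WT level. The log2 fold change was -0.24 (SE 0.04). It was the only member whose groups did not overlap, as was the case for 1.62% of all tested genes (0.703% higher and 0.918% lower in HT), and since the family was chosen on this contrast nothing is read from that count.

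The difference of Prmt2 was moderate in size, and its spread between mice was small. A log2 fold change of at least this size, in either direction, was found for 15.0% of the tested genes. Its SE of 0.04 compared with a median SE of 0.09 over all tested genes, and 3.89% of them had a smaller one. The order by p-value, on which Prmt2 was picked, favours genes with a small SE, so nothing is read from this. The tested genes also include means down to 10, against a mean of 1702 for Prmt2. Just before Prmt2 in the order was Dynlt1b, with 2361 ± 66.8 in HT mice and 1720.2 ± 79.7 in WT mice (SD, n = 5 each). Just after it was Fchsd1, with 320.0 ± 18.6 in HT mice and 479 ± 83.7 in WT mice (SD, n = 5 each). Dynlt1b passed the threshold and Fchsd1 did not (limma adjusted p 0.28). Their log2 fold changes were 0.46 and -0.57.

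**Figure D1:**
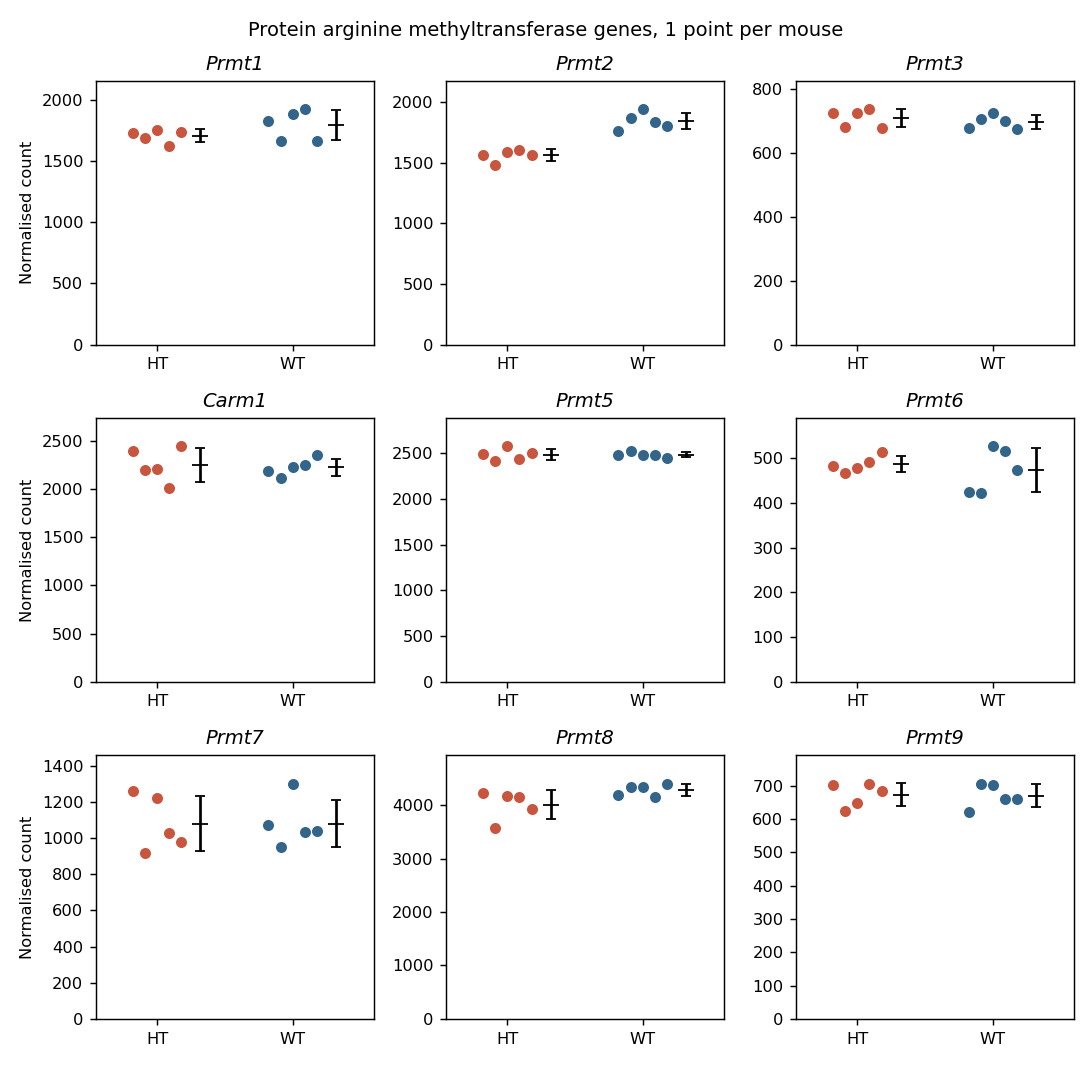
Normalised counts of the 9 PRMT genes, with 1 point per mouse for HT (red) and WT (blue) and black bars for the mean ± SD (n = 5), and each vertical axis starting at 0. For Prmt2 the HT mice lie between 1481 and 1607 and the WT mice between 1759 and 1940.1, and in each of the other 8 panels the groups overlap.

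The astrocyte markers were set beside Prmt2 because their score also differed between the groups. The score, the mean z-score of the 10 marker genes, was -0.31, 1.46, -0.24, 0.37 and 1.46 in HT1 to HT5. In WT1 to WT5 it was -0.28, -0.05, -1.05, -0.75 and -0.61. HT1 and HT3 had scores within the range of the WT mice, and Prmt2 values of 1566 and 1589. The part of the astrocyte markers in the difference of Prmt2 was not tested. With the astrocyte score as a covariate the log2 fold change of Prmt2 was -0.20, and with the striatal score it was -0.24. Without HT2 and HT5 together, a choice made after the data were seen, it was -0.21.

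**Figure D2:**
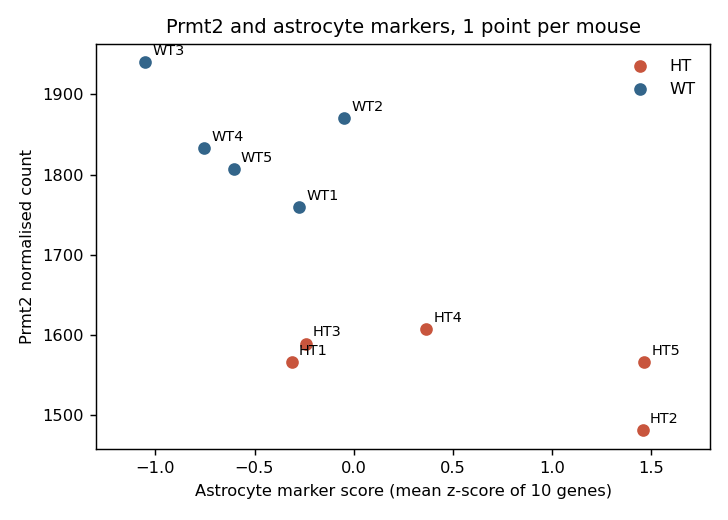
Normalised count of Prmt2 (vertical axis, not starting at 0) against the astrocyte marker score (mean z-score of 10 genes), with 1 labelled point per mouse for HT (red) and WT (blue). Scores run from -0.31 to 1.46 in HT and from -1.05 to -0.05 in WT, and the part of the astrocyte markers in the difference of Prmt2 was not tested.

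The genes next to Prmt2 on chromosome 10 did not pass the threshold. S100b, which encodes a calcium-binding protein of astrocytes, begins 15988 bases beyond the start of Prmt2 and had 1143 ± 141 in HT mice and 1137 ± 92.9 in WT mice (SD, n = 5 each). Its log2 fold change was 0.00 (SE 0.08, limma adjusted p 0.99). Dip2a, the next tested gene on that side, had 2861 ± 80.2 in HT mice and 3067 ± 107 in WT mice (SD, n = 5 each), with a log2 fold change of -0.10 ± 0.04 (SE) and an adjusted p of 0.51 by limma. On the other side the nearest tested gene, Zfp280b, ended 163988 bases away and had a log2 fold change of 0.00 ± 0.11 (SE) and an adjusted p of 0.99 by limma. Gm867 followed it, with values near the lower limit of testing, at 14.7 ± 11.4 in HT mice and 6.19 ± 2.76 in WT mice (SD, n = 5 each), and a limma adjusted p of 0.53. Its log2 fold change was 0.99, and 0.63 without HT5. The microRNA gene Mir678 lies within the span of Prmt2 and is not in the table. Transcripts of other genes held 1.55% of the 31-base words of Prmt2 transcripts.

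Genes whose values followed those of Prmt2 from mouse to mouse were looked for after the mean of each group had been subtracted, so that genotype itself did not count. Over the 10 mice and 13887 genes with a mean of at least 50, the highest Pearson r with Prmt2 were 0.94 for Gm9801, 0.93 for Mrtfa, 0.93 for Acer3, 0.92 for Tmem185b and 0.92 for Bid. With 10 mice and this many genes such values are picked from the extreme of a wide distribution, and the genes share libraries with Prmt2. None of the 5 passed the threshold for genotype. The closest in size was Tmem185b, with 202 ± 16.2 in HT mice and 233 ± 17.3 in WT mice (SD, n = 5 each). Its log2 fold change was -0.21, with an SE of 0.09 and an adjusted p of 0.51 by limma, and its groups overlapped.

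Of the other 8 PRMT genes, 0 passed the limma threshold and 0 had an unadjusted p under 0.05, beside the 9.23% of all tested genes (4.71% higher and 4.52% lower in HT). Their limma adjusted p-values ran from 0.55 to 0.99. Counting Prmt2, 4 of the 9 genes had a log2 fold change below 0 and 5 above 0, with a median of 0.00, and 48.8% of all tested genes were above 0, with a median of -0.004.

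Among the other type I enzymes, Prmt8 (chr6:127689011-127769472, minus strand) had the largest difference. Its normalised counts were 4219, 3581, 4177, 4148 and 3930.0 in HT1 to HT5 and 4187, 4343, 4345, 4159 and 4405 in WT1 to WT5. All 5 HT mice lay below the WT mean, but HT1 was higher than WT1 and WT4, and HT3 higher than WT4, so the groups overlapped. The means were 4011 ± 265 in HT mice and 4288 ± 108 in WT mice (SD, n = 5 each). The log2 fold change was -0.10 (SE 0.05, 95% interval -0.20 to 0.01, limma adjusted p 0.55). It was -0.06 without HT2, the lowest mouse, and -0.01 with the astrocyte score as a covariate. The part of the astrocyte markers in the values of Prmt8 and of the pathway genes was not tested otherwise.

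Prmt1 (chr7:44975989-44986568, minus strand), the main type I enzyme, also had all 5 HT mice below the WT mean. HT1 to HT5 had normalised counts of 1731, 1691, 1751, 1624 and 1737. WT1 to WT5 had 1824, 1667, 1887, 1922 and 1666. WT2 and WT5 lay within the HT range and the other 3 WT mice above it. The log2 fold change was -0.07 (SE 0.05, 95% interval -0.18 to 0.04, limma adjusted p 0.66), and leaving out WT4 moved it to -0.04. With the astrocyte score as a covariate it was -0.03. For Prmt1, 7.97% of its 31-base words also occurred in transcripts of other genes, the highest share in the family.

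The remaining type I enzymes differed little in their means. Prmt3 (chr7:49778346-49858265, plus strand), a cytosolic enzyme with a zinc finger that methylates a protein of the small ribosomal subunit, had 709 ± 27.2 in HT mice and 697 ± 21.4 in WT mice (SD, n = 5 each). Its log2 fold change was 0.02 (95% interval -0.09 to 0.13, limma adjusted p 0.90). Carm1 (chr9:21546894-21592623, plus strand), a coactivator that methylates histone H3 and the BAF subunit BAF155, had 2251 ± 176 in HT mice and 2227 ± 89.4 in WT mice (SD, n = 5 each). Its log2 fold change was 0.01 (95% interval -0.11 to 0.13, limma adjusted p 0.95). Prmt6 (chr3:110246109-110250998, minus strand), a nuclear enzyme that acts on histone H3, had 487 ± 17.3 in HT mice and 473 ± 49.3 in WT mice (SD, n = 5 each), with a log2 fold change of 0.05 (95% interval -0.11 to 0.21, limma adjusted p 0.85). For Prmt6 the HT mice were close together (468 to 513) and the WT mice spread wider (422 to 526). The log2 fold change of Prmt6 was 0.01 without WT2, 0.09 without WT3 and 0.10 with the astrocyte score as a covariate. That of Prmt3 was 0.01 without HT4, 0.04 without HT5 and 0.08 with the astrocyte score, and that of Carm1 was -0.02 without HT5 and 0.05 without HT4. The size of these small differences thus depended on single mice. The sign of Carm1 did too, whereas Prmt3 and Prmt6 kept their sign under all alternatives.

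The type II and type III enzymes had nearly equal means in both genotypes. Prmt5 (chr14:54507187-54517525, minus strand), which works with the protein MEP50 and methylates Sm proteins of the spliceosome, had the smallest SE of the family. It had 2485 ± 61.4 in HT mice and 2482 ± 25.9 in WT mice (SD, n = 5 each), with a log2 fold change of 0.00 (SE 0.04) and a 95% interval of -0.08 to 0.08. Prmt9 (chr8:77549397-77581338, plus strand), which methylates a splicing factor of the U2 particle, had 673 ± 34.9 in HT mice and 671 ± 35.3 in WT mice (SD, n = 5 each), with a 95% interval of -0.12 to 0.13. Prmt7 (chr8:106210936-106252794, plus strand), the monomethylating enzyme, had the widest spread between mice. Its values ran from 917 to 1258 in HT and from 953 to 1302 in WT. Its log2 fold change was -0.00, with a 95% interval of -0.21 to 0.21. It was 0.26 with the astrocyte score as a covariate (limma adjusted p 0.98) and 0.12 without HT2 and HT5 together, so its value depended on these settings. Over all alternatives, the lowest limma adjusted p of a member other than Prmt2 was 0.46, for Prmt8.

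**Figure D3:**
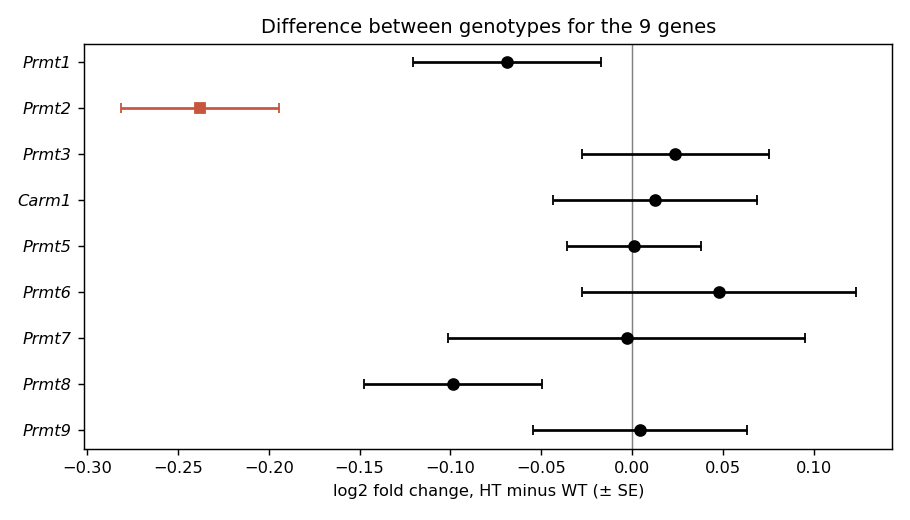
Log2 fold change (HT minus WT, on the log2(value + 1) scale) of each of the 9 PRMT genes with bars for ± SE from limma (n = 5 per genotype), Prmt2 drawn as a red square because it was chosen on this contrast. Prmt2 lies at -0.24, Prmt8 and Prmt1 at -0.10 and -0.07, and the other 6 within 0.05 of 0.

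Some members share their span with other genes. Yipf2, on the opposite strand, overlaps the end of Carm1, with 343 ± 28.0 in HT mice and 338 ± 30.5 in WT mice (SD, n = 5 each). The antisense gene C130013H08Rik overlaps the start of Prmt6 and had 71.1 ± 5.35 in HT mice and 71.2 ± 9.07 in WT mice (SD, n = 5 each). Smpd3 overlaps the end of Prmt7 by 247 bases and had 4997 ± 547 in HT mice and 4990 ± 291 in WT mice (SD, n = 5 each). The antisense gene Gm42738 overlaps Prmt8 and had 12.6 ± 4.14 in HT mice and 17.9 ± 6.44 in WT mice (SD, n = 5 each), with a log2 fold change of -0.46, and of -0.30 without HT4. None of these 4 genes passed the threshold (limma adjusted p 0.64 to 0.99), and Gm45286, within Prmt9, was too low to be tested. The overlapping genes Gm26856 and Gm44822 (Prmt3), Gm26786 (Prmt7), Gm42739 (Prmt8) and Gm23468 (Prmt9) are not in the table. Whether the libraries kept strand, and whether strand was used in counting, is not given in the sources used here, so reads of overlapping genes on opposite strands may not be told apart.

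Levels were compared between members per kilobase of annotated exon, over all 10 mice. Prmt8 was the highest, at 1523 ± 88.1 normalised counts per kb (SD, n = 10). Prmt5 followed at 627 ± 11.2 (SD, n = 10), and neither range overlapped its neighbour in the order. Prmt1 (511 ± 28.8), Prmt2 (503 ± 46.7) and Carm1 (461 ± 27.2) came next, with overlapping ranges, so that their order is not set beyond the spread. Prmt7 stood apart on both sides at 176 ± 21.8 (SD, n = 10). Prmt9 (118 ± 5.82), Prmt3 (117 ± 3.99) and Prmt6 (114 ± 8.49) closed the order with overlapping ranges. The level of Prmt8 per kb was thus 13.3 times that of Prmt6. Prmt8 made up 36.7% of the summed level of the family, Prmt5 15.1%, Prmt1 12.3%, Prmt2 12.1% and Carm1 11.1%. Prmt8 has 1 annotated transcript and the other genes 3 to 14, so counting all exons lengthens the others but not Prmt8. On the longest transcript Prmt8 stayed at 1523 per kb and Prmt6 was at 157. The share of Prmt8 and its ratio to Prmt6 are thus lower on that measure.

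The summed level of the 9 genes was 3796 to 4206 per kb in HT and 4166 to 4387 in WT, with overlapping ranges. With the longest annotated transcript in place of all exons the first 6 places were the same, and Prmt3 moved above Prmt9.

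**Figure D4:**
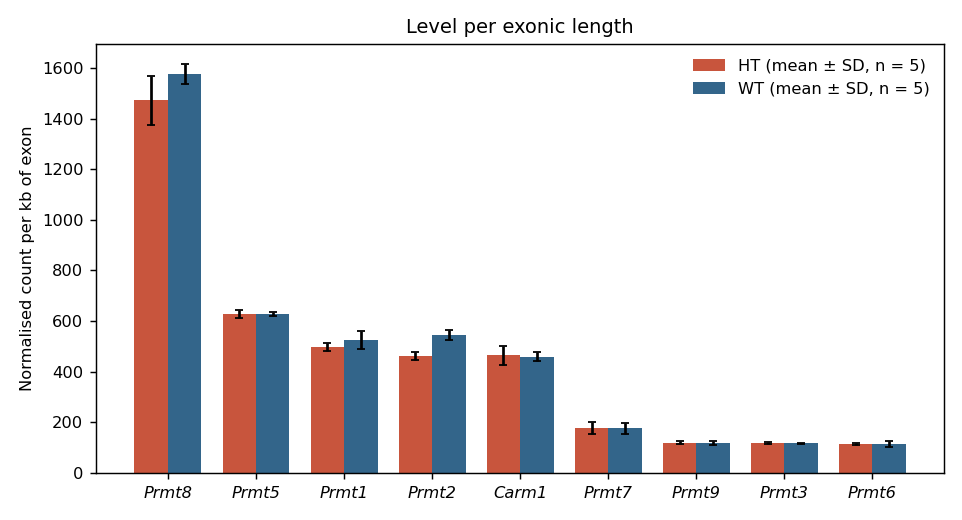
Normalised count per kb of annotated exon for the 9 PRMT genes, in order of their mean over all mice, with bars for the mean ± SD of HT (red) and WT (blue, n = 5 each). Prmt8 is highest at 1523 over all mice, and Prmt9, Prmt3 and Prmt6 are lowest at 114 to 118.

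The wider pathway was taken from 7 lists of genes around arginine methylation, Tudor domain proteins included, with 82 genes in all, of which 79 were in the table and were tested. Of these 79, 0 passed the limma threshold, where 0.0179% of all tested genes did. An unadjusted p under 0.05 was found for 10 genes (12.7%), beside 9.23% of all tested genes. By direction, 8 were higher in HT (10.1%, beside 4.71%) and 2 were lower (2.53%, beside 4.52%). The groups did not overlap for 1 gene (1.27%), beside 1.62% of all tested genes. The shares are descriptions of these lists, and no test was made of a list as a whole.

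The partner proteins include Wdr77, which encodes the MEP50 subunit of the PRMT5 complex, and Clns1a and Riok1, whose products compete to bring substrates to PRMT5. Of 8 partners, 0 had an unadjusted p under 0.05, and the median log2 fold change was -0.001. The farthest from 0 were Btg1, an antiproliferative cofactor of PRMT1 (0.23, SE 0.25, limma adjusted p 0.77), Rps2, the ribosomal protein that binds PRMT3 (0.05, SE 0.05), Coprs, which guides PRMT5 to histones (-0.09, SE 0.07), and Epb41l3, which binds PRMT3 and PRMT5 (-0.08, SE 0.05). Btg1 spread widely in both groups, from 642 to 1183 in HT and from 374 to 1221 in WT, and its value was 0.01 without WT5 and 0.43 without WT4. Without HT2, Rps2 had 0.01 and Epb41l3 -0.03.

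Genes for the synthesis and recycling of S-adenosylmethionine had a median log2 fold change of 0.01 over 14 genes, with 2 higher and 1 lower at an unadjusted p under 0.05. Those 3 were Mat2a, the synthetase itself (0.10, SE 0.05), Mthfd1 of folate metabolism (0.11, SE 0.05) and Ahcyl2, a relative of S-adenosylhomocysteine hydrolase (-0.15, SE 0.05), with limma adjusted p-values of 0.52, 0.51 and 0.48. Mat2a was named after its values were seen, as it belonged to this count. Mat2a had 6014 ± 208 in HT mice and 5604 ± 308 in WT mice (SD, n = 5 each), and the groups overlapped. Shmt1, the cytosolic serine hydroxymethyltransferase, had the most positive value, at 0.32 (SE 0.19), from low levels of 36.6 to 69.5 in HT and 34.8 to 49.0 in WT, and it had 0.10 with the astrocyte score as a covariate. Amd1, which uses S-adenosylmethionine for polyamines, had -0.13 (SE 0.07, limma adjusted p 0.60), with -0.05 without HT5 and -0.002 with the astrocyte score as a covariate.

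Of 7 genes for the turnover of methylated arginine or for enzymes that compete for arginine, 4 were in the table, and Agxt2, Padi3 and Padi4 were not. The 2 with an unadjusted p under 0.05 were Ddah1 and Ddah2, which encode the hydrolases of free asymmetric dimethylarginine. Ddah1 had 4869 ± 368 in HT mice and 4350 ± 335 in WT mice (SD, n = 5 each), with a log2 fold change of 0.16 ± 0.06 (SE) and an adjusted p of 0.50 by limma. Ddah2 had 427 ± 42.8 in HT mice and 363 ± 40.6 in WT mice (SD, n = 5 each), with a log2 fold change of 0.24 ± 0.09 (SE) and an adjusted p of 0.51 by limma. For both genes the groups overlapped and the astrocyte markers moved the same way, and with the astrocyte score as a covariate the values were 0.06 and 0.15. Jmjd6, a dioxygenase put forward as an arginine demethylase, had -0.04 (SE 0.07) and -0.01 without WT3, and Padi2, which turns arginine into citrulline, 0.10 (SE 0.14).

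Tudor domains bind methylated arginine in some proteins and methylated lysine in others, such as PHF20. The 8 genes of Tudor domain proteins included 0 with an unadjusted p under 0.05. Their median log2 fold change was 0.04, with 7 of 8 above 0. The most positive were Akap1, an anchoring protein of mitochondria (0.09, SE 0.06, limma adjusted p 0.61), and Phf20 (0.05, SE 0.06), and the 1 below 0 was Tdrkh (-0.01, SE 0.05). Akap1 had 0.05 without HT1 and 0.21 with the astrocyte score as a covariate, and Phf20 had 0.02 without WT4 and 0.10 without HT2. The arginine methyltransferases outside the family, Ndufaf7, which acts on a subunit of respiratory complex I, and Mettl23, which acts on histone H3, had 0.02 (SE 0.06) and 0.09 (SE 0.08). Without WT2 the value of Mettl23 was 0.06, and without HT1 that of Ndufaf7 was -0.02.

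RNA-binding proteins are the largest class of PRMT substrates, and 30 of them were examined. At an unadjusted p under 0.05 there were 2 higher and 1 lower in HT (10.0%), and the median log2 fold change was 0.02. Elavl4, which encodes the neuronal protein HuD, a CARM1 substrate that stabilises mRNA, was the 1 gene of all 7 lists whose groups did not overlap. Its normalised counts lay between 2462 and 3391 in HT and between 3395 and 4288 in WT, so the groups nearly touched. The log2 fold change of Elavl4 was -0.30 (SE 0.09, limma adjusted p 0.41), and it was -0.22 without HT2 and -0.11 with the astrocyte score as a covariate. Cirbp, a cold-inducible protein, had 0.21 (SE 0.09, limma adjusted p 0.53), and 0.07 with the astrocyte score as a covariate. Pabpn1, the nuclear poly(A)-binding protein, had 0.12 (SE 0.06, limma adjusted p 0.52), and 0.07 with the astrocyte score as a covariate. Elavl1, the widely expressed relative of Elavl4, had -0.07 (SE 0.05, limma adjusted p 0.62).

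Among 13 substrates in chromatin and transcription, 2 were higher in HT at an unadjusted p under 0.05 and 0 were lower, with a median log2 fold change of 0.01. Foxo1, a transcription factor methylated by PRMT1, had 1083 ± 92.5 in HT mice and 885 ± 154 in WT mice (SD, n = 5 each), with a log2 fold change of 0.31 ± 0.11 (SE) and an adjusted p of 0.48 by limma. Ep300, an acetyltransferase methylated by CARM1, had 2462 ± 155 in HT mice and 2203 ± 103 in WT mice (SD, n = 5 each), with a log2 fold change of 0.16 ± 0.05 (SE) and an adjusted p of 0.48 by limma. For both the groups overlapped. The lowest values in this list were -0.09 (SE 0.10) for Rbm15 and -0.06 (SE 0.05) for Supt5, which had -0.03 without HT5 and -0.02 without HT2, respectively. Without HT4, Rbm15 had -0.15.

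**Figure D5:**
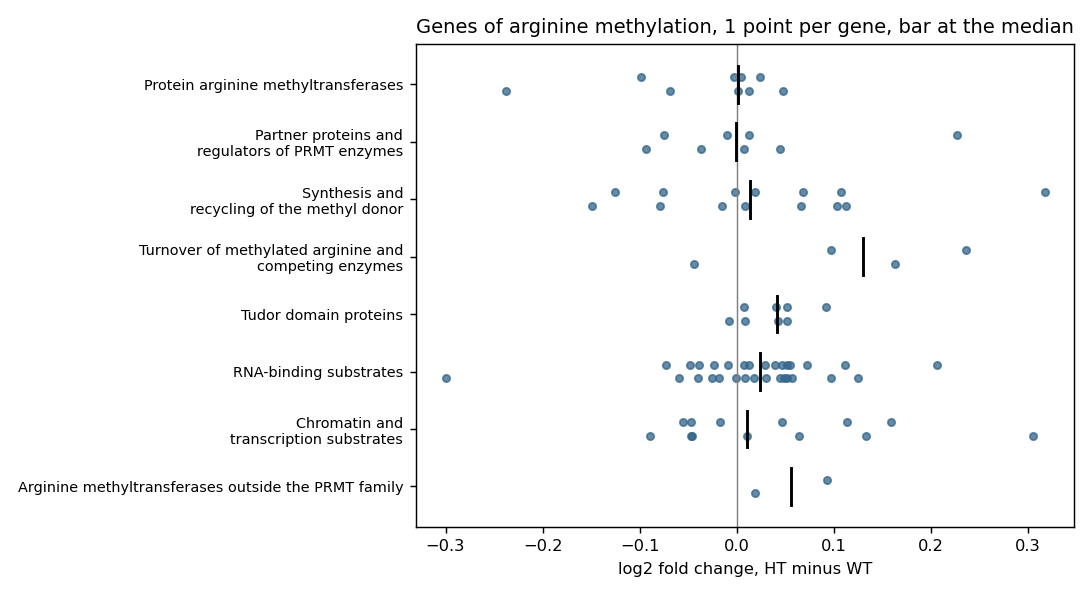
Log2 fold change (HT minus WT, on the log2(value + 1) scale) of each tested gene in the PRMT family and 7 lists of the arginine methylation pathway, 1 point per gene with a black bar at the median of the list. Prmt2 at -0.24 and Elavl4 at -0.30 are the lowest points of their lists, and the medians lie between -0.001 and 0.13.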

How the data were processed

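RNA-seq of the prefrontal cortex of 10 mice was analysed. As the authors describe it, transcript abundance was estimated with Salmon 1.1.0 on GRCm38 with GC bias correction, summed to genes with tximport and divided by DESeq2 1.30.1 size factors. The deposited values are thus a normalised signal per gene, not whole reads: at most 21.1% of values under 20 in a sample lay within 0.02 of a whole multiple of 1 step. Sequencing depth is unknown, so precision comes from the spread between mice, and totals (31106330 to 32106791 per sample) do not give it. The authors' filter on low genes is not stated.

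Symbols and positions came from GENCODE M21, which held 18205 of the 18216 identifiers. Values were taken as log2(value + 1), and genes with a mean of at least 10 entered a linear model in limma (version 3.58.1, under R 4.3.3, with mean-variance trend, genotype as only factor, Benjamini-Hochberg adjustment, threshold 0.05). A changed total of RNA per cell would not be seen. In simulated data for the 16781 genes, 100 genes were changed by 0.5 and 100 by 1 (log2) in each of 5 runs. Of these, 58.8% and 85.4% were recovered. With so many changed genes the adjusted threshold is easier to pass than in the data, where 3 genes were called. These shares therefore do not give the sensitivity of the comparison made here. Python 3.11.15, pandas 2.3.3 and matplotlib 3.10.9 were used for the rest.

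The members and lists were chosen with earlier results of these data known. Named genes were the 9 members, Arid1b, genes past the threshold or next to Prmt2 in the order of p-values, the 2 most positive and 2 most negative genes of each list, neighbours of Prmt2, genes overlapping a member, the 5 genes most like Prmt2, and markers at the extremes of their lists. Other list genes that count among those with an unadjusted p under 0.05, or whose role explains a list, were named after their values were seen. Alternatives were pseudocounts of 0.5 and 10, other filters, upper-quartile and quantile scaling, no trend, sample weights, the replicate number as a block, marker scores as covariates, each mouse left out in turn, and an adjusted p under 0.1.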

Additional observations from a re-analysis of the deposited data

How the results depend on the processing

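Of the 8 PRMT genes other than Prmt2, 0 passed the threshold under all 23 alternatives, and so did 0 genes of the 7 pathway lists. In the main fit 0.0179% of all tested genes passed. The number of genes called was 3 or 4, and the main 3 were among them each time. Arid1b kept its direction and call, with log2 fold changes from -0.61 to -0.56 when 1 mouse was left out. For Prmt2 the log2 fold change ran from -0.25 to -0.22 when 1 mouse was left out and from -0.24 to -0.20 under the other alternatives. Its place by p-value, on which the family was chosen, was less steady, from 5 to 15 when 1 mouse was left out and from 4 to 45 under the other alternatives. With the replicate block the log2 fold change of Prmt2 was -0.24, 0 of the other 8 members passed and 3 genes were called. The numbers mark different mice, same-numbered mice correlated by 0.0375 on average, and the block changed no call.

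Genes near 0 changed sign, with no call made, and the cause was not tested. With the astrocyte score the log2 values were 0.256 (Prmt7), -0.0644 (Rps2), 0.0248 (Epb41l3), 0.0328 (Tdrkh), -0.178 (S100b), -0.0397 (Yipf2) and 0.124 (Smpd3). Without HT2 and HT5, added after the data were seen, they were -0.0184 (Carm1), 0.116 (Prmt7), -0.0234 (Rps2), 0.000861 (Epb41l3), 0.0073 (Tdrkh), -0.0947 (S100b), -0.0417 (Yipf2) and 0.104 (Smpd3). With sample weights they were 0.0589 (Prmt7), 0.00219 (Tdrkh), -0.0586 (S100b), -0.0102 (Yipf2) and 0.0468 (Smpd3). With quantile scaling they were 0.00164 (Prmt7), 0.00226 (Tdrkh), -0.0149 (Zfp280b), -0.0564 (C130013H08Rik) and 0.0185 (Smpd3), with upper-quartile scaling 0.0077 (Prmt7), 0.0023 (Tdrkh) and 0.00756 (Smpd3), and with the striatal score -0.00183 (Prmt5), -0.036 (Zfp280b) and -0.0371 (C130013H08Rik).

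Leaving out 1 mouse gave log2 values from -0.0178 to 0.0532 for Carm1, -0.012 to 0.0105 for Prmt5, -0.0607 to 0.0661 for Prmt7, -0.0228 to 0.0301 for Prmt9, -0.0332 to 0.00644 for Tdrkh, -0.0176 to 0.0512 for Ndufaf7, -0.0768 to 0.0676 for Zfp280b, -0.0538 to 0.0699 for S100b, -0.00839 to 0.0701 for Yipf2, -0.0473 to 0.0471 for C130013H08Rik and -0.0382 to 0.0631 for Smpd3. On the longest transcript, levels per kb were 923 (Prmt5), 815 (Prmt1), 810.3 (Prmt2), 624.5 (Carm1), 311 (Prmt7), 239 (Prmt3), 173 (Prmt9) and 157 (Prmt6).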
